A study of Mus musculus with 84 samples.

Results

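The genes described here are the proteasome subunits and ubiquitin enzymes represented on a spotted cDNA array of mouse mammary tumors. A gene was taken as a member where at least 1 clone carried a single gene symbol beginning with Psma, Psmb, Psmc, Psmd, Psme, Ube2, Uba plus a digit, or Usp plus a digit, and its clones were averaged. The rule, which used no measured value, gave 70 genes from 113 clones, of 7766 genes from 11860 clones with a single symbol. By symbol they comprised 16 genes of the 20S core and the 19S cap of the proteasome, counting the assembly chaperone Psmd5, 4 with Psme symbols (its activators and the binding partner Psme3ip1), 2 E1 activating enzymes, 18 with Ube2 symbols and 30 with Usp symbols. The Ube2 symbols, those of E2 conjugating enzymes, include the pseudogene Ube2d-ps and Ube2cbp, a protein that binds an E2. The Usp symbols, those of ubiquitin-specific proteases, include Usp39, which lacks protease activity, and Usp6nl, a GTPase-activating protein.

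The series holds mammary tumors of mice carrying an MMTV-Wnt-1 or an MMTV-Neu transgene, in which the mouse mammary tumor virus promoter drives the oncogene. It also holds lung metastases of both models and mammary glands without a tumor. The Neu transgene is a rat cDNA without an activating mutation. Each array paired sample RNA, labelled with Cy5, against Cy3-labelled RNA of a common pool of FVB mouse tissues (ovary, liver, spleen, kidney, thymus, pancreas, lung and lactating mammary gland), and a level below is the log2 ratio of sample over pool. Arrays of one format were analysed, 65 in all. The study's methods state a single print batch for that format and a single preparation of the pool. They do not describe the metastases, so a batch shared with the tumors is not established for these. The groups were 10 Wnt-1 lung metastases, 23 Wnt-1 primary tumors of mice aged 9 to 56 weeks, 3 Neu lung metastases, 12 Neu primary tumors of mice aged 32 to 60 weeks, 7 hyperplastic glands of tumor-free Wnt-1 mice aged 9 weeks, 5 glands of nontransgenic virgin mice aged 9 weeks, and 3 samples of intestinal fat of virgin mice aged 12 weeks. Another 2 arrays held lung metastases grown after Neu tumor cells were injected into the tail vein of nontransgenic mice, and they entered no main comparison. The ages of the mice with metastases were not given in the sources used here. Neu and nontransgenic mice were of the FVB strain and Wnt-1 mice of a mixed background of FVB, SJL and C57BL/6. Strain and oncogene therefore cannot be told apart between Wnt-1 tumors and Neu tumors. The same holds for Wnt-1 tumors and hyperplastic glands against virgin glands. Age ranges differed between the tumor types and between tumors and glands as well. The labels do not say that the arrays of a group came from separate animals, and the p-values below measure the spread between these arrays.

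Ubiquitin is activated by an E1 enzyme, passed to an E2 and attached to a target protein with the help of an E3 ligase. Proteins carrying ubiquitin chains are bound by the 19S regulatory particle, unfolded by its ATPase ring and cut inside the 20S core, while deubiquitinating proteases remove or trim the chains. A parallel pathway attaches the ubiquitin-like protein ISG15, which interferon induces, through the E1 enzyme Uba7 and the E2 enzyme Ube2l6, and the protease Usp18 removes it.

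Array medians lay between -0.14 and 0.043 on the log2 scale, and the SD of all clones on an array had a median of 0.94. On 6 arrays that SD exceeded 1.3 (Wnt-1 metastases 19, 50 and 52, Wnt-1 tumors 42 and 49, and fat 44). Counts of calls without them are given below, and values of single genes without them only for Wnt-1 metastases and fat. None of the 7345 clone values of the members was missing, and 5 lay beyond a ratio of 0.01 or 100. In bulk tissue, fewer cells of a type and less RNA per cell cannot be told apart. This bears first on the glands. The 11 adipocyte markers on the array averaged -2.02 to -0.71 in Wnt-1 tumors, -1.65 to -0.99 in Neu tumors, 0.80 to 1.27 in hyperplastic glands and 1.99 to 2.31 in virgin glands. The 6 skeletal muscle markers averaged -2.03 to 0.77 in Wnt-1 tumors, -1.60 to 0.48 in Neu tumors, 2.35 to 3.35 in hyperplastic glands and 2.62 to 3.50 in virgin glands. The part of these cells in any difference between tumors and glands was not tested.

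Genes were called at a Benjamini-Hochberg adjusted p under 0.05 over all 7766 genes in limma, a linear model with moderated variances, and "rose" and "fell" are used of such calls. Of the 70 members, 59 were called in at least 1 of 8 comparisons and 11 in none. The same count was not made over all genes, of which 45.8% were called between Wnt-1 tumors and Neu tumors alone. Between Wnt-1 tumors and Neu tumors 35 members (50%) were called against 45.8% of all genes, 18 higher and 17 lower in Wnt-1 tumors (22.8% and 23.0% of all genes). Between Wnt-1 tumors and hyperplastic glands 36 (51.4%) were called against 44.1% of all genes. There the 24 members that rose were 34.3% of the members, against 21.9% of all genes, and the 12 that fell were 17.1%, against 22.2%. Wnt-1 tumors differed from virgin glands in 31 members (44.3%, against 52.4% of all genes), with 18 higher and 13 lower, and in 24 higher and 11 lower after each array was centred on its median. Neu tumors differed from virgin glands in 22 members (31.4%), against 55.6% of all genes, with 12 higher and 10 lower (26.8% and 28.8% of all genes). Hyperplastic glands differed from virgin glands in 5 members (7.14%), against 23.8% of all genes. Of these 1 rose and 4 fell, against 9.58% and 14.3% of all genes. After centring or quantile normalization 2 rose and 4 fell. The share of all genes called was not counted after either step in any comparison. The comparisons with virgin glands share the 5 virgin gland arrays, and those of tumors share the tumor arrays, so they are not independent of each other.

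**Figure D1:**
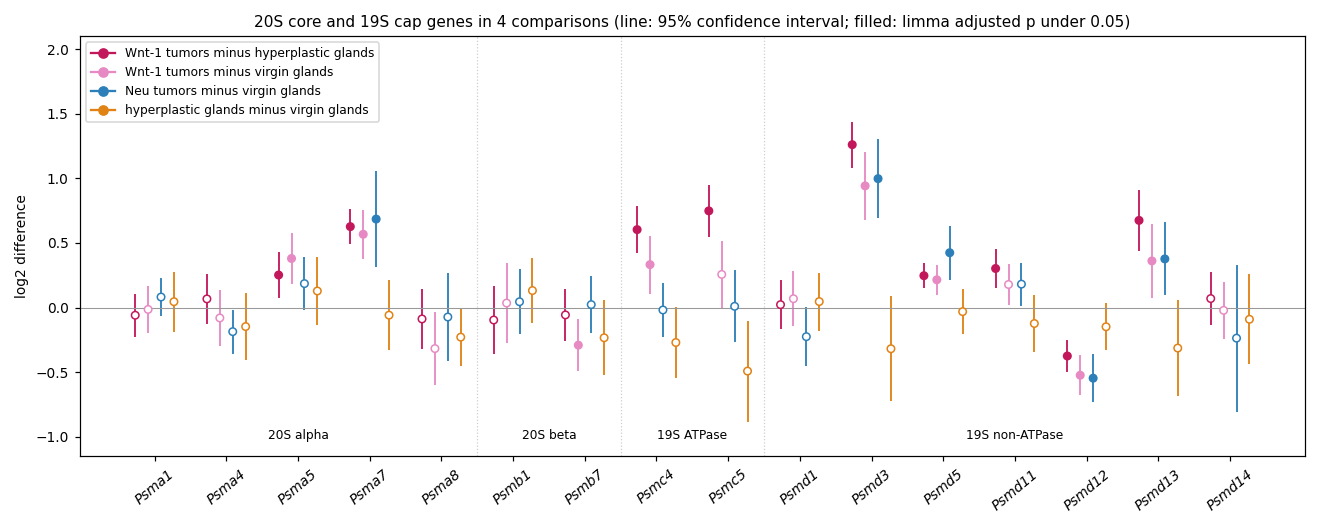
Log2 difference of each of the 16 genes of the 20S core and 19S cap in 4 comparisons between tumors and glands, with 95% confidence intervals; filled points passed the limma threshold. Psmd3 lies at 0.94 to 1.26 in the 3 tumor comparisons, while Psmd12 lies at -0.55 to -0.38.

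Among the 16 core and cap genes, 8 were higher and 1 was lower in Wnt-1 tumors than in hyperplastic glands, with a median difference of 0.16 against -0.03 over all genes, of which 21.9% were higher and 22.2% lower. Against virgin glands the counts were 6 higher and 2 lower in Wnt-1 tumors (median 0.12, all genes -0.02), where 2016 of all 7766 genes were higher and 2055 lower. In Neu tumors 4 were higher and 1 lower (median 0.03, all genes 0.01), against 26.8% and 28.8% of all genes. Hyperplastic and virgin glands differed in 0 of the 16 by limma at the adjusted threshold (median -0.14, all genes -0.02). Directions differed among the subunits, and a few genes had differences much above the others.

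Psmd3, a non-ATPase subunit of the 19S cap measured by 1 clone, had the largest difference of the 16 between tumors and glands. Its level in Wnt-1 tumors was -0.37 at the lowest, 0.062 at the median and 0.39 at the highest, and in hyperplastic glands -1.62, -1.19 and -1.003. Neu tumors had -0.16, 0.14 and 0.32. Virgin glands 17, 27, 28, 29 and 13 had -1.25, -1.10, -0.28, -0.43 and -1.35. All 23 Wnt-1 tumors lay above every hyperplastic gland and 21 lay above every virgin gland, as did all 12 Neu tumors, while virgin glands 28 and 29 stood apart from the other 3. The Wnt-1 tumors were 2.40-fold above hyperplastic glands (log2 difference 1.26, SE 0.09, adjusted p = 5.47e-13) and 1.92-fold above virgin glands (0.94, SE 0.13, adjusted p = 4.25e-07). Neu tumors were 2.00-fold above virgin glands (1.00, SE 0.15, adjusted p = 1.41e-05). Between Wnt-1 tumors and Neu tumors Psmd3 was not called, with a difference of -0.06 (95% CI -0.19 to 0.08).

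Psma7, an alpha-ring subunit of the 20S core, followed the same order of groups. The lowest, median and highest levels were 0.27, 0.65 and 0.83 in Wnt-1 tumors and 0.22, 0.66 and 1.42 in Neu tumors, against -0.14, -0.049 and 0.12 in hyperplastic glands. Virgin glands had -0.34 to 0.39, with glands 28 and 29 again the highest. Each of the 23 Wnt-1 tumors exceeded every hyperplastic gland (difference 0.63, SE 0.07, adjusted p = 3.37e-09), and 20 exceeded every virgin gland (0.57, SE 0.09, adjusted p = 7.84e-06). In Neu tumors Psma7 was 1.61-fold above virgin glands (0.68, SE 0.18, adjusted p = 0.00312). The 2 clones of Psma7 gave 0.80 and 0.45 for Wnt-1 tumors over hyperplastic glands, both called, and correlated with r = 0.75 over the arrays, which share their RNA and labelling between the clones.

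The 2 ATPases on the array, Psmc4 and Psmc5, which belong to the ring that unfolds substrates, rose in Wnt-1 tumors against hyperplastic glands. Psmc5 was 1.68-fold higher there (0.75, SE 0.10, adjusted p = 3.09e-07) and Psmc4 1.52-fold higher (0.60, SE 0.09, adjusted p = 1.5e-06). Both were also higher in Wnt-1 tumors than in Neu tumors, Psmc4 by 0.35 (SE 0.07, adjusted p = 4.44e-05) and Psmc5 by 0.25 (SE 0.07, adjusted p = 0.00446). For Psmc4, 19 of 23 Wnt-1 tumors lay above every Neu tumor. Against virgin glands Psmc4 rose by 0.33 in Wnt-1 tumors (adjusted p = 0.0124), a call lost without virgin gland 17 or 13, and Psmc5 was not called. Virgin glands split for Psmc5, at 0.013, 0.21 and 0.089 in glands 27, 28 and 29 but -0.73 and -0.54 in glands 17 and 13. The last 2 values lie inside the range of the hyperplastic glands, which had a median of -0.75 and a highest value of -0.27. In Neu tumors against virgin glands the differences were -0.02 for Psmc4 and 0.01 for Psmc5, neither of them called.

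Of the other subunits, the cap subunit Psmd13 rose by 0.67 in Wnt-1 tumors against hyperplastic glands (SE 0.11, adjusted p = 1.39e-05). Psmd5, a chaperone of cap assembly, rose in all 3 tumor comparisons with glands, by 0.21 to 0.42, and was lower by 0.21 in Wnt-1 tumors than in Neu tumors. Psmd12, a subunit of the cap lid, went the other way. It fell by 0.38 in Wnt-1 tumors against hyperplastic glands (SE 0.06, adjusted p = 6.58e-06), by 0.52 against virgin glands and by 0.55 in Neu tumors against virgin glands, and every tumor in these 3 comparisons lay below every gland. Psmb7, which carries the trypsin-like site of the core, was lower by 0.31 in Wnt-1 tumors than in Neu tumors (SE 0.07, adjusted p = 0.000693), with 17 of 23 below every Neu tumor. It also fell by 0.29 in Wnt-1 tumors against virgin glands (adjusted p = 0.0135), a call lost without virgin gland 28 (adjusted p = 0.0544). Psma5, of the alpha ring, and Psmd1, a base subunit of the cap, were higher in Wnt-1 tumors than in Neu tumors by 0.19 and 0.29.

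Proliferation genes were counted in the same comparisons. All 12 on the array rose in Wnt-1 tumors against hyperplastic glands (median 1.21) and in Neu tumors against virgin glands (median 1.24), and 11 rose in Wnt-1 tumors against virgin glands (median 1.76). In hyperplastic against virgin glands, where 0 of the 16 subunits were called by limma and their median was -0.14, 5 of the 12 proliferation genes rose (median 0.61). Their part in the subunit differences was not tested.

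The activators attach to the ends of the core. Psme3, the nuclear PA28 gamma, rose by 0.34 in Wnt-1 tumors against hyperplastic glands (adjusted p = 0.0179) and was higher by 0.27 in Wnt-1 tumors than in Neu tumors (adjusted p = 0.0193). Psme4, or PA200, fell by 0.41 in hyperplastic glands against virgin glands (adjusted p = 0.0298), with 6 of 7 below every virgin gland, a call lost without virgin gland 29 or 13 and when all groups entered one fit (adjusted p = 0.554). Its 2 clones gave -0.69, called, and -0.14, not called. Psme1, the PA28 alpha subunit that interferon-gamma induces, was called in none of the 8 comparisons by limma. Its difference between Wnt-1 tumors and Neu tumors was 0.01 (95% CI -0.12 to 0.13).

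The 3 enzymes of the ISG15 pathway were all lower in Wnt-1 tumors than in Neu tumors. Usp18, which removes ISG15 and also restrains signalling from the type I interferon receptor, had the largest difference of any member. Its lowest, median and highest levels were -1.22, -0.52 and 0.046 in Wnt-1 tumors, against 0.16, 0.81 and 2.28 in Neu tumors. All 23 Wnt-1 tumors lay below all 12 Neu tumors, and the mean was 2.41-fold lower (difference -1.27, SE 0.15, adjusted p = 4.83e-09). Uba7, the E1 for ISG15, had -1.26, -0.57 and 0.048 in Wnt-1 tumors and -0.57, 0.10 and 0.30 in Neu tumors. The groups overlapped, with 12 of 23 Wnt-1 tumors below every Neu tumor, and the difference was -0.54 (SE 0.11, adjusted p = 6.28e-05). Its 3 clones gave -0.56, -0.58 and -0.49, all called. Ube2l6, the E2 for ISG15, had -3.31, -1.83 and -1.05 in Wnt-1 tumors and -1.92, -1.58 and -0.77 in Neu tumors (difference -0.50, SE 0.18, adjusted p = 0.0191). There 10 of 23 Wnt-1 tumors lay below every Neu tumor, and the call was lost when all groups entered one fit (adjusted p = 0.215).

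**Figure D2:**
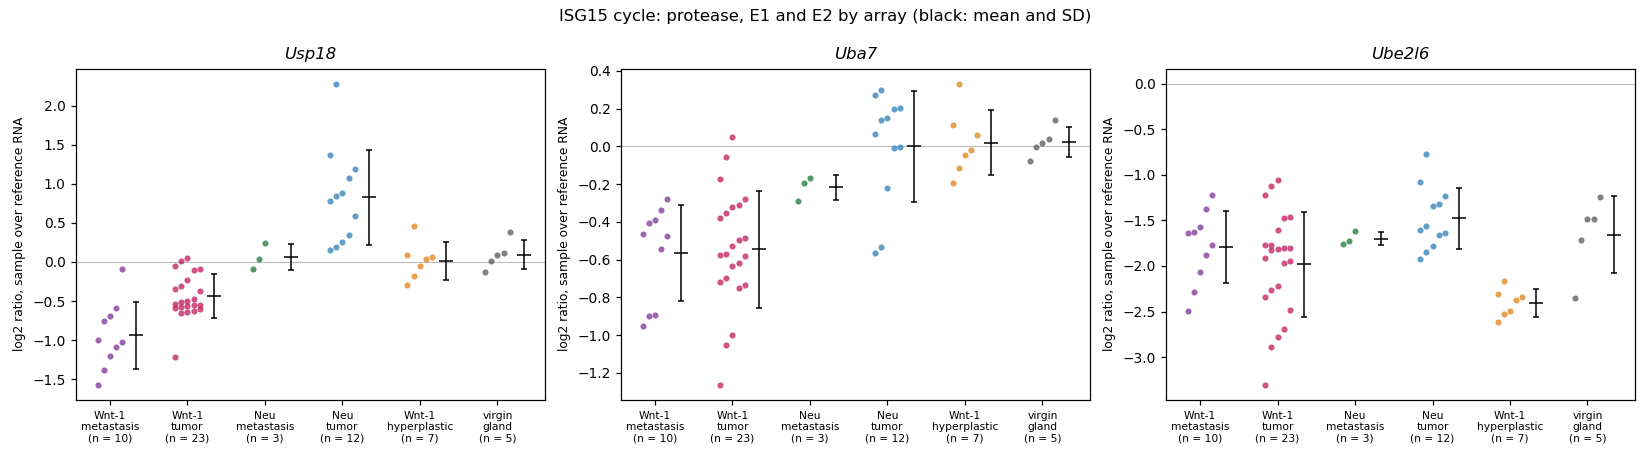
Log2 ratio over the reference pool of Usp18, Uba7 and Ube2l6 on each array, by group, with the mean and SD in black; fat is left out. For Usp18 the 23 Wnt-1 tumors sit between -1.22 and 0.046 and the 12 Neu tumors between 0.16 and 2.28.

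In glands Usp18 was at -0.13, 0.11, 0.011, 0.083 and 0.38 in virgin glands 17, 27, 28, 29 and 13, and at -0.30 to 0.46 in hyperplastic glands. It fell by 0.45 in Wnt-1 tumors against hyperplastic glands (adjusted p = 0.0021) and by 0.53 against virgin glands (adjusted p = 0.00128). In Neu tumors it rose by 0.74 against virgin glands (SE 0.26, adjusted p = 0.0245), with 8 of 12 above every virgin gland. That call was lost without virgin gland 17 (adjusted p = 0.0612) or 28 (adjusted p = 0.0519). Uba7 fell in Wnt-1 tumors against both kinds of gland, by 0.56 and 0.57, and its difference between Neu tumors and virgin glands was -0.02, which was not called. Ube2l6 fell by 0.75 in hyperplastic glands against virgin glands (SE 0.16, adjusted p = 0.0042). Hyperplastic glands 7, 10, 11, 9, 14, 15 and 5 had -2.30, -2.17, -2.50, -2.53, -2.34, -2.37 and -2.62, against -2.35, -1.25, -1.71, -1.49 and -1.48 in virgin glands 17, 27, 28, 29 and 13. Gland 17 thus lay inside the hyperplastic range, and the call was lost when all groups entered one fit (adjusted p = 0.412).

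Within a tumor type the 3 enzymes were compared in 6 relations, and none passed Benjamini-Hochberg adjustment. In 12 Neu tumors Usp18 and Uba7 had Pearson's r = 0.62 (permutation p = 0.0342, adjusted 0.103) and Spearman's rho = 0.66 (permutation p = 0.0217, adjusted 0.13), and r was 0.48 without the 2 tumors farthest from the Usp18 median. For Usp18 and Ube2l6 in Neu tumors r was 0.62 (permutation p = 0.0304, adjusted 0.103) and rho 0.48 (permutation p = 0.122, adjusted 0.319). There r was 0.076 without 2 tumors, so the relation rests on them. In 23 Wnt-1 tumors r lay between -0.10 and 0.11 for the 3 pairs, with permutation p of 0.614 to 0.635 and rho of -0.14 to 0.12.

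Other genes of the interferon response and of antigen presentation were counted beside these enzymes. Their list, like the other gene lists here, was chosen with earlier results of these data known. Of 12 on the array, 9 were lower and 2 higher in Wnt-1 tumors than in Neu tumors, with a median difference of -0.62 against -0.03 over all genes. The median was -0.61 after median centring and -0.50 after quantile normalization. Their mean level was -0.44 to 0.24 in Wnt-1 tumors and 0.20 to 0.85 in Neu tumors. Oas1a, an interferon-induced antiviral enzyme, was lower by 1.82, B2m, the light chain of MHC class I, by 1.97, and Irf9, a subunit of the interferon transcription factor ISGF3, by 0.59. The members higher in Wnt-1 tumors were Irf8, a transcription factor of myeloid and lymphoid cells, by 1.08, and the GTPase Gbp3, by 0.22. Of 7 lymphocyte markers 2 were higher and 1 lower in Wnt-1 tumors, and of 5 macrophage markers 0 were higher and 1 lower. The part of immune cells in the ISG15 enzymes was not tested.

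Promoters of Uba7 and Ube2l6, the ISG15 enzymes found in a RefSeq promoter table (build GRCm38.p6), are printed with that of Psme1, as the interferon-inducible members of which the first 2 were lower in Wnt-1 tumors and the last was not called. Each runs from 250 bases before to 50 after the transcription start, on the plus strand, at chr9:107975317-107975616 for Uba7, chr2:84798578-84798877 for Ube2l6 and chr14:55578244-55578543 for Psme1. Capitals mark the core of the interferon-stimulated response element, searched on both strands as TTTC, any 2 bases and TTTC again.
Uba7: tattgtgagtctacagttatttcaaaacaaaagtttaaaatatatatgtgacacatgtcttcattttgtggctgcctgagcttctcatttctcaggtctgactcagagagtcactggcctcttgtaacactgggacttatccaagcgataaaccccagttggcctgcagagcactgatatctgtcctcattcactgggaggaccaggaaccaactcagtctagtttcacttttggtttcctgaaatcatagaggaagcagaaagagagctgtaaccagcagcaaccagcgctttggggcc
Ube2l6: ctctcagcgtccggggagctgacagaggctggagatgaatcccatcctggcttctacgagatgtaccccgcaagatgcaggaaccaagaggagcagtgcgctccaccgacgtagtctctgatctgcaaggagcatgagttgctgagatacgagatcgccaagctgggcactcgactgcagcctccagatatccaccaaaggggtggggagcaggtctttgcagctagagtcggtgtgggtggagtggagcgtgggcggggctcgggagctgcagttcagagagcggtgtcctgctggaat
Psme1: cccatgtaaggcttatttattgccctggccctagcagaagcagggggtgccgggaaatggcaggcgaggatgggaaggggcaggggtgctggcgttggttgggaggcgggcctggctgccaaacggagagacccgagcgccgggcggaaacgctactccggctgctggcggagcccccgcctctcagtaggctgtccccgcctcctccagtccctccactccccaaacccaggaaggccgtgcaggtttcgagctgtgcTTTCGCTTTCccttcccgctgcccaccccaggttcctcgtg
The motif occurred once, in Psme1, where it began 9 bases after the start, and it was in no other of the 52 members found in the table (1.92%), against 3.99% of 27025 genes in the table. The letters TGACNNNGC, a core of the antioxidant response element, were in the promoters of 9 of the 52 members (17.3%) and of 13.99% of all genes in the table, and in 1 of 12 core and cap genes. No member's promoter held both motifs. A match is a run of letters and not a measured binding site.

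Counting Ube2l6, 3 of the 18 genes with Ube2 symbols were higher and 6 lower in Wnt-1 tumors than in Neu tumors, against 22.8% and 23.0% of all genes. Against hyperplastic glands 3 were higher and 4 lower in Wnt-1 tumors, against 21.9% and 22.2% of all genes. Ube2o, a large enzyme that combines E2 and E3 activities, was 1.44-fold higher in Wnt-1 tumors than in Neu tumors (difference 0.52, SE 0.08, adjusted p = 1.76e-06), and rose by 0.29 and 0.32 in Wnt-1 tumors against hyperplastic and virgin glands. Ube2e1 was higher by 0.38 in Wnt-1 tumors than in Neu tumors (SE 0.07, adjusted p = 3.25e-05). It was the 1 member that rose in hyperplastic glands against virgin glands, by 0.43 (SE 0.13, adjusted p = 0.0267). Every hyperplastic gland exceeded every virgin gland for Ube2e1, with gland 5 highest at 1.07, and the call was lost without virgin gland 27, 28 or 29. Ube2e3, of the same subfamily, rose by 0.47 in Wnt-1 tumors against virgin glands (SE 0.08, adjusted p = 2.3e-05).

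Ube2k, which builds lysine-48-linked chains, fell in all 3 comparisons of tumors with glands. Its lowest, median and highest levels were -1.10, -0.15 and 0.41 in Wnt-1 tumors and -0.45, -0.24 and -0.048 in Neu tumors, against -0.20, 0.13 and 0.37 in hyperplastic glands and 0.28, 0.46 and 0.59 in virgin glands. The difference from virgin glands was -0.72 in Wnt-1 tumors (SE 0.14, adjusted p = 0.000117) and -0.67 in Neu tumors (SE 0.08, adjusted p = 1.11e-06), with all 12 Neu tumors below every virgin gland. From hyperplastic glands Wnt-1 tumors differed by -0.42 (SE 0.13, adjusted p = 0.00717), with overlap. Ube2d1, a widely acting E2, was lower by 0.59 in Wnt-1 tumors than in Neu tumors (SE 0.21, adjusted p = 0.0205), but 1 of its 2 clones gave -1.01 and the other -0.16, which was not called. Its pseudogene Ube2d-ps had a clone at -1.37 and a clone at 0.51 in Wnt-1 tumors against virgin glands. The clones of Ube2d1 and of Ube2d-ps thus disagreed, and the values of this family are uncertain. Binding of related Ube2d transcripts to the same spots was not tested.

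Against virgin glands the largest differences were in the ubiquitin-specific proteases. Usp22, which removes ubiquitin from histones as part of the SAGA complex, had lowest, median and highest levels of -0.95, 0.15 and 1.05 in Wnt-1 tumors and -0.89, 0.42 and 0.77 in Neu tumors. Hyperplastic glands had -1.12, -1.02 and -0.31, and virgin glands 17, 27, 28, 29 and 13 had -1.44, -0.65, -1.29, -1.05 and -1.68. One tumor of each type lay among the virgin glands, and the other 22 Wnt-1 and 11 Neu tumors lay above them. Usp22 was 2.70-fold higher in Wnt-1 tumors than in virgin glands (1.43, SE 0.20, adjusted p = 5.77e-07), 2.77-fold higher in Neu tumors than in virgin glands (1.47, SE 0.24, adjusted p = 4.17e-05) and 2.11-fold higher in Wnt-1 tumors than in hyperplastic glands (1.07, SE 0.17, adjusted p = 5.14e-06). Its 3 clones gave 1.79, 0.01 and 2.50 for Wnt-1 tumors over virgin glands, of which the middle one was not called. Between Wnt-1 tumors and Neu tumors the gene differed by -0.04 (95% CI -0.35 to 0.28).

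Usp20, a deubiquitinase that binds the von Hippel-Lindau protein, fell by the most against both kinds of gland. It had -0.94, -0.63 and -0.35 as lowest, median and highest level in Wnt-1 tumors, -0.60, -0.38 and -0.24 in Neu tumors and -0.26, 0.063 and 0.53 in hyperplastic glands. Virgin glands 17, 27, 28, 29 and 13 had 0.63, 1.04, 1.17, 1.18 and 0.74. No Wnt-1 tumor overlapped either kind of gland, no Neu tumor overlapped the virgin glands, and no hyperplastic gland overlapped the virgin glands. Against virgin glands Usp20 was 3.01-fold lower in Wnt-1 tumors (-1.59, SE 0.09, adjusted p = 9.39e-15), 2.51-fold lower in Neu tumors (-1.33, SE 0.09, adjusted p = 9.46e-10) and 1.84-fold lower in hyperplastic glands (-0.88, SE 0.15, adjusted p = 0.00113). Wnt-1 tumors were lower than hyperplastic glands by 0.71 (adjusted p = 6.59e-08) and lower than Neu tumors by 0.26 (adjusted p = 0.000139). The adipocyte markers had the same order of groups, with tumors below hyperplastic glands and these below virgin glands and with 10 of 11 lower in hyperplastic than in virgin glands (median -1.22), and their part in the Usp20 values was not tested. In fat itself Usp20 was at 0.28, 0.69 and 0.36.

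**Figure D3:**
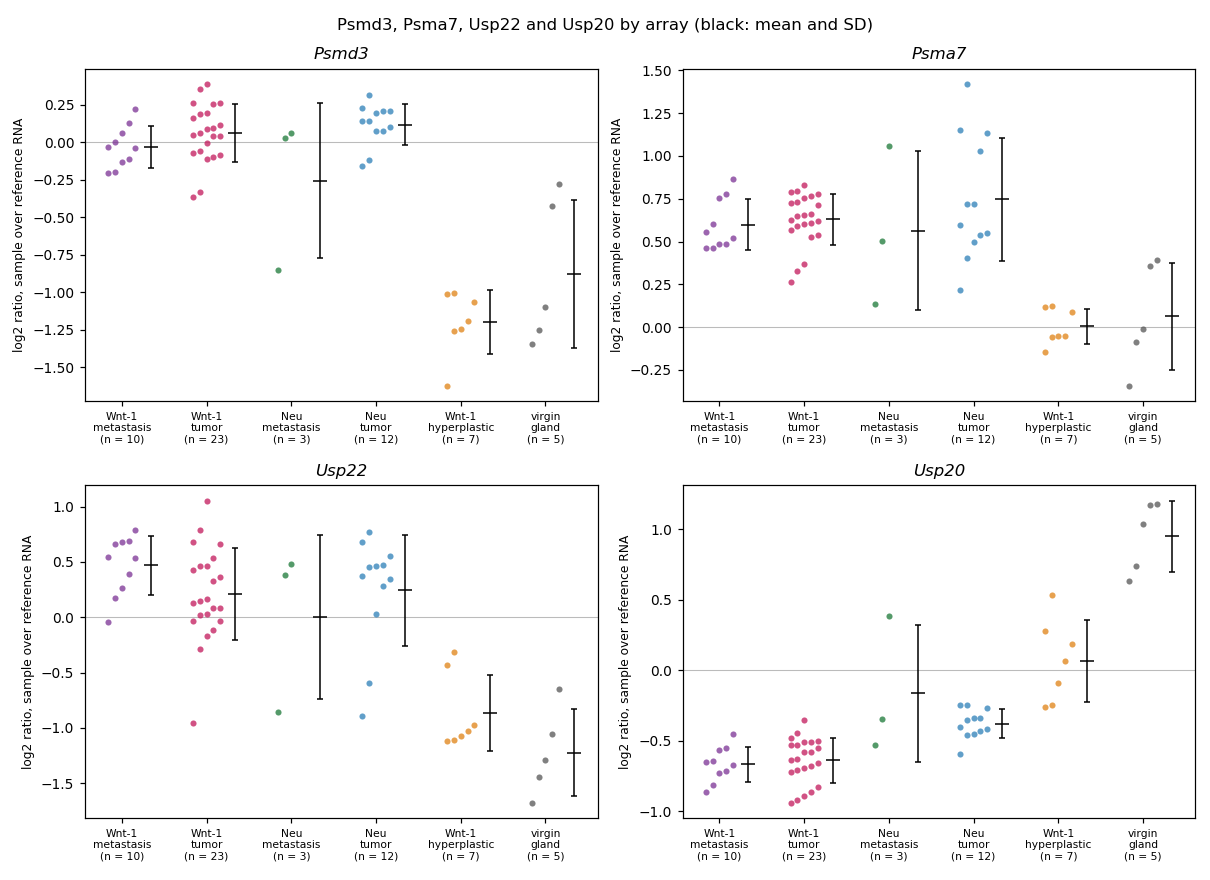
Log2 ratio over the reference pool of Psmd3, Psma7, Usp22 and Usp20 on each array, by group, with mean and SD. Usp20 is at -0.24 or below on all 35 tumor arrays and at 0.63 or above in all 5 virgin glands, and the other 3 genes are higher in most tumors than in the glands.

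Neu tumors stood apart from Wnt-1 tumors and from virgin glands for several proteases. Usp53, a family member found at tight junctions, had -0.92, -0.42 and -0.052 in Wnt-1 tumors and -1.57, -1.16 and -0.83 in Neu tumors as lowest, median and highest level. Virgin glands lay between -0.26 and -0.038, and hyperplastic glands between -0.94 and -0.41. It was 1.68-fold higher in Wnt-1 tumors than in Neu tumors (0.75, SE 0.08, adjusted p = 2.74e-09), with 22 of 23 above every Neu tumor, and all 12 Neu tumors lay below every virgin gland (-1.04, SE 0.11, adjusted p = 1.49e-07). In hyperplastic glands it fell by 0.46 against virgin glands (adjusted p = 0.00378), with no overlap. Usp11, a nuclear protease linked to DNA repair, was higher by 0.73 in Wnt-1 tumors than in Neu tumors (SE 0.14, adjusted p = 4.89e-05) and fell by 0.94 in Neu tumors against virgin glands (adjusted p = 4.03e-05), without overlap in the second comparison. Usp28, which stabilizes Myc, was higher by 0.51 in Wnt-1 tumors than in Neu tumors (adjusted p = 5.4e-07) and fell by 0.79 in Neu tumors against virgin glands (adjusted p = 8.63e-07).

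In the opposite direction, Usp16, a deubiquitinase of histone H2A, had -0.38, 0.13 and 0.28 in Wnt-1 tumors and 0.16, 0.75 and 1.27 in Neu tumors as lowest, median and highest level. It was 1.61-fold lower in Wnt-1 tumors (-0.69, SE 0.08, adjusted p = 7.87e-09), and rose by 0.73 in Neu tumors against virgin glands (adjusted p = 0.000746). Usp30, of the outer mitochondrial membrane, was lower by 0.49 in Wnt-1 tumors than in Neu tumors and rose by 0.68 in Neu tumors against virgin glands. Usp24 was lower by 0.71 in Wnt-1 tumors than in Neu tumors (SE 0.18, adjusted p = 0.00114). Usp39, a splicing factor of the family that lacks protease activity, was higher by 0.61 in Wnt-1 tumors (adjusted p = 0.0172), where the lowest Neu tumor stood at -3.91 and the Neu median at -0.46. Myoepithelial markers also separated the tumor types, with 3 of 4 higher in Wnt-1 tumors (median 1.31, mean levels -0.36 to 0.91 in Wnt-1 tumors and -2.19 to -0.98 in Neu tumors). Their part in these differences was not tested.

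**Figure D4:**
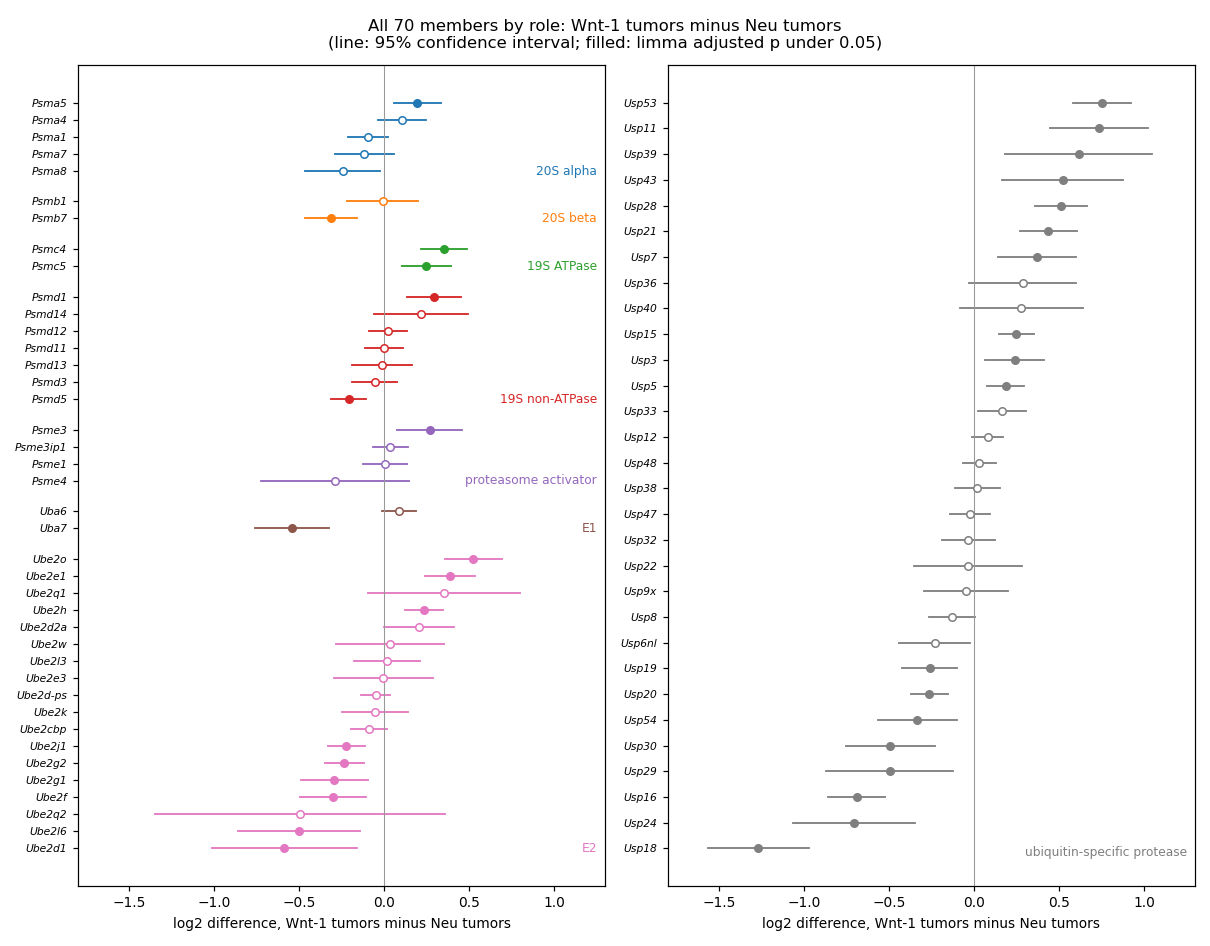
Log2 difference of Wnt-1 tumors minus Neu tumors for all 70 members, grouped by role, with 95% confidence intervals; filled points passed the limma threshold. Usp18 lies lowest at -1.27 and Usp53 highest at 0.75.

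Usp7, which acts on Mdm2 and p53, and Usp5, which takes apart free ubiquitin chains, rose in Wnt-1 tumors against hyperplastic glands, by 0.71 (SE 0.13, adjusted p = 3.31e-05) and 0.59 (SE 0.08, adjusted p = 1.55e-07). The 3 Usp7 clones gave 0.10, 1.501 and 0.52 there, of which 0.10 was not called. Usp15, a deubiquitinase of TGF-beta signalling, and Usp33, a close relative of Usp20, fell by 0.37 and 0.40 in the same comparison. Usp15 also fell in Wnt-1 tumors and in Neu tumors against virgin glands, by 0.21 and 0.46.

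Few of these genes differed between metastases and tumors. Of the 70 members 1 (1.43%) was called between Wnt-1 lung metastases and Wnt-1 tumors, against 5.46% of all genes (2.88% higher and 2.58% lower). An unadjusted limma p under 0.05 was found for 8 members and for 1568 of all 7766 genes. The call was Usp18, with lowest, median and highest levels of -1.57, -1.01 and -0.095 in metastases against -1.22, -0.52 and 0.046 in tumors. The difference was -0.50 (SE 0.12, adjusted p = 0.0101), with 2 of 10 metastases below every tumor. Metastases 19, 50 and 52, whose arrays had an SD over 1.3, had -1.57, -1.38 and -1.21, and without the arrays of high SD the difference was -0.30 and no longer called (adjusted p = 0.269). The genes that separated tumors from glands differed by -0.09 for Psmd3, -0.03 for Psma7, 0.26 for Usp22 (95% CI -0.03 to 0.55) and -0.03 for Usp20, none of them called.

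Neu lung metastases and Neu tumors differed in 0 members by limma, against 0.155% of all genes called, with 6 members at an unadjusted p under 0.05. A permutation t-test adapted from the study's methods also gave 0 members after adjustment. Usp18 was at 0.25, -0.085 and 0.034 in metastases 53, 56 and 61, against 0.16 to 2.28 in Neu tumors, a difference of -0.76 that was not called (adjusted p = 0.694). Metastasis 61 stood apart, with Psmd3 at -0.85 against 0.029 and 0.058 in metastases 53 and 56, Usp22 at -0.86 against 0.48 and 0.38, and Usp20 at 0.39 against -0.35 and -0.53. The difference between the metastasis effects of the 2 models was called for 0 members by limma, against 0.0515% of all genes (0.0386% higher and 0.0129% lower). Its unadjusted p was under 0.05 for 3 members (Psma4, Usp15 and Usp16) and for 613 of all 7766 genes. Of 6 lung epithelium markers 4 were higher in Wnt-1 metastases (median 3.91) and 3 in Neu metastases (median 1.55) than in tumors of the same model. The part of lung tissue was not tested.

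Fat differed from the pooled primary tumors in 29 members (41.4%), against 54.2% of all genes, with 7 higher and 22 lower (21.2% and 33.0% of all genes). Fat 44 decided many of these, and without it 16 members were called, 4 higher and 12 lower. The share of all genes called without fat 44 was not counted. Calls that stayed without fat 44 were Usp53, higher by 1.51 with it and 1.53 without it, Usp20 (0.99 and 1.08) and Psmd12 (0.54 and 0.65). Among the lower ones, Usp22 stayed at -1.69 and -1.45, Psmd3 at -0.86 and -0.95 and Psma7 at -0.88 and -0.77. In each of these 6 genes all 3 fat samples lay beyond all 35 tumors on the same side. The values of Psma8, a testis form of the alpha ring, and of Ube2l6 rested on fat 44, where they stood at -7.18 and -8.97. Their differences were -2.49 and -2.21 with it, and -0.16 and 0.26, not called, without it.

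Clones of a gene did not always give the same value. For 44 members only 1 clone was used, so agreement between clones could not be checked. Psmd3, Psmd12, Psmc4, Psmc5, Usp18, Usp20, Usp53, Usp16, Usp11 and Ube2l6 are among these. Of the 26 members with several clones, pairs of clones correlated over the arrays with a lowest r of 0.60 for Uba7 and 0.75 for Psma7, but the median r of a gene's pairs was below 0.1 for 15 of the 26. Among the genes given values above, these were Usp7, Usp28, Usp33, Psmd5, Ube2d1 and Ube2d-ps, and the average over clones of such a gene joins clones that did not vary together. The fall of Usp33 was called in 3 of its 4 clones and the rise of Psmd5 in 1 of its 3 in Wnt-1 tumors against hyperplastic glands. For Ube2j1, also among the 15, an enzyme of degradation at the endoplasmic reticulum with 7 clones, the fall of 0.26 in Wnt-1 tumors against hyperplastic glands came with 1 called clone, at -1.43. All clones of Uba7 were called in the same direction in the 3 comparisons where the gene was, as were both clones of Psma7 in the comparisons of tumors with glands.

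**Figure D5:**
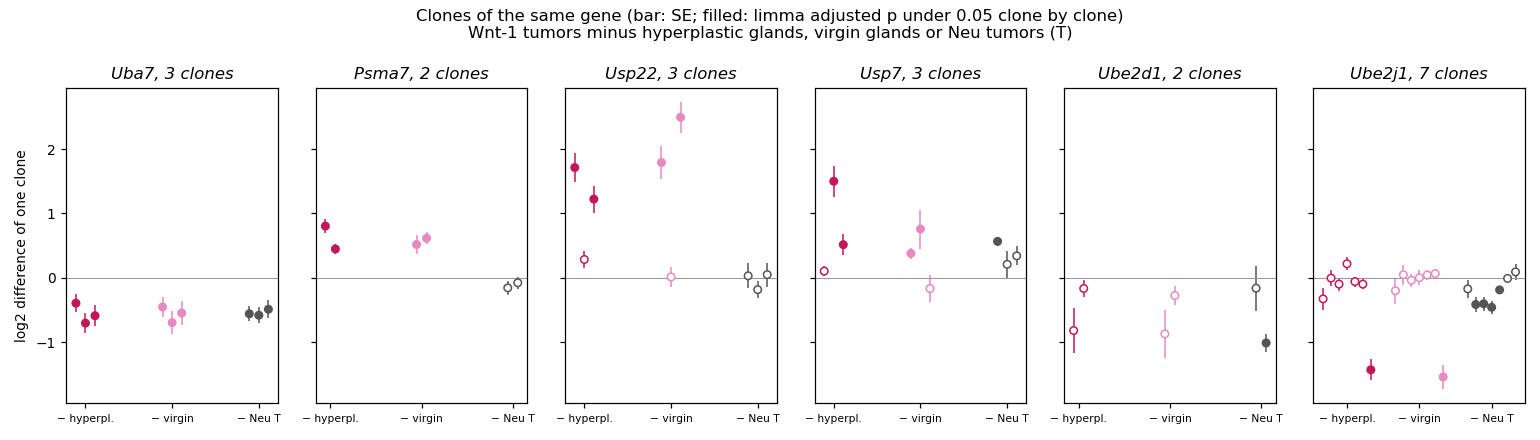
Log2 difference of each clone, with SE bars, for 6 members with several clones, in Wnt-1 tumors minus hyperplastic glands, virgin glands or Neu tumors along each x axis; filled points were called clone by clone. The 3 clones of Uba7 and the 2 of Psma7 lie together, while those of Usp22, Usp7, Ube2d1 and Ube2j1 are spread.

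Other genes of the ubiquitin pathway, from a list of 106 of which 57 were on the array, were counted beside the members. Against hyperplastic glands 23 were higher and 9 lower in Wnt-1 tumors, against 21.9% and 22.2% of all genes. Against virgin glands 20 were higher and 7 lower in Wnt-1 tumors, where 2016 of all 7766 genes were higher and 2055 lower. In Neu tumors 18 were higher and 15 lower than in virgin glands, against 26.8% and 28.8% of all genes, and in Wnt-1 tumors 11 were higher and 10 lower than in Neu tumors, against 22.8% and 23.0% of all genes. Sem1, a small 26S subunit whose symbol lies outside the rule, was higher by 1.40 in Wnt-1 tumors than in Neu tumors (adjusted p = 2.13e-10). Skp2, the substrate receptor of an SCF ligase that acts on cell cycle inhibitors, was 3.12-fold higher in Wnt-1 tumors than in virgin glands, and the cullin Cul4a was 2.01-fold lower. Ubqln1, a shuttle that carries ubiquitinated proteins to the proteasome, fell by 1.17 in Wnt-1 tumors against virgin glands.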

How the data were processed

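RNA of each sample (Cy5) and of the common reference pool (Cy3) was hybridised to spotted cDNA arrays. The authors scanned the arrays, normalized them and deposited log2 ratios of sample over pool per clone, and the analysis began from these deposited log2 values without further scaling. Spot quality scores and arrays of a smaller format were not used here. Of 15360 clones, 11860 carried a single gene symbol in the platform annotation and were averaged per gene. Groups came from the labels. Each comparison was fitted on its own arrays with limma 3.58.1 in R 4.3.3 (lmFit, eBayes), for genes present on at least 50% of arrays, with Benjamini-Hochberg adjustment over 7766 genes and a threshold of 0.05. Fits were tested on simulated data with known changes. Tried as alternatives were centring, quantile normalization, one fit of all groups, clone-level and median-of-clone values, leaving out arrays, a fold limit, the block and a permutation t-test. The permutation t-test was adapted from the study's methods. It pooled its statistics over genes, drew fewer regroupings than the study and used no spot quality filter.

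The members and the gene lists were chosen with earlier results of these data known. Members named with values are up to 8 called ones of largest rise and fall in each comparison, the 2 of smallest adjusted p in each role group, and clones that differ in sign or by over 1 log2 unit. This rule for naming also lists immunoproteasome subunits and mitotic E2 enzymes, which are not among the 70 members. Promoters came from RefSeq.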

Additional observations from a re-analysis of the deposited data

Results flagged for a closer look

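In groups of 4 to 10 arrays, a level was set apart where the gap between the highest or lowest array and its nearest neighbour took a larger share of the group's range than Dixon's 95% limit. Over 53 members, 159 sets of arrays were checked and 13 were set apart, where chance gives about 1 in 20. Of the 13, 8 were in Wnt-1 lung metastases, and 6 of these were on metastases 19, 50 and 52, the arrays with an SD over 1.3.

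Metastasis 19 stood high in Psma4 at 0.49 (others -0.16 to 0.17), Ube2e3 at 0.67 (others 0.11 to 0.39) and Ube2l3 at 0.46 (others -0.16 to 0.11). Metastasis 50 stood low in Ube2k at -0.79 (others -0.35 to 0.037) and Ube2o at -1.10 (others -0.37 to 0.026). Metastasis 52 stood high in Ube2q2 at 3.85 (others -0.65 to 1.38). Outside those arrays, metastasis 38 was low in Psmd1 at -0.37 (others 0.35 to 0.73) and metastasis 62 high in Usp24 at 0.97 (others -0.18 to 0.32).

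Hyperplastic gland 5 was high in Uba6 at 0.21 (others -0.20 to -0.066) and in Ube2e1 at 1.07 (others 0.25 to 0.59). Hyperplastic gland 15 was low in Psmd3 at -1.62 (others -1.26 to -1.003), and hyperplastic gland 11 was low in Usp16 at -0.71 (others -0.23 to 0.036). Virgin gland 13 was high in Usp33 at 0.47 (others -0.30 to -0.10).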

How the results depend on the processing

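The counts of called members depended most on the rule for a call. The share of all genes called was not counted under the altered settings. The member counts below therefore cannot be set against the array as a whole. With a fold of at least 1.5 added, they were 7 for Wnt-1 tumors against Neu tumors, 9 for Wnt-1 tumors against hyperplastic glands, 4 and 12 for Wnt-1 and Neu tumors against virgin glands, 2 for hyperplastic against virgin glands, 0 for Wnt-1 metastases and 18 for fat. By the adapted permutation t-test at P under 0.001 they were 22, 22, 18, 14 and 2 in the same order, with 10 for fat. After Benjamini-Hochberg adjustment that test gave 9 for hyperplastic against virgin glands and 18 for fat. Clone by clone, 13 clones were called for hyperplastic against virgin glands, 38 for Neu tumors against virgin glands, 3 for Wnt-1 metastases and 50 for fat. Without the arrays of SD over 1.3, 0 members were called for Wnt-1 metastases and 16 for fat. For Wnt-1 tumors, 37 were then called against Neu tumors and 39 against hyperplastic glands. Against virgin glands 39 were called, 21 higher and 18 lower, where the main fit gave 31.

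Leaving out 1 virgin gland at a time gave 3 (without gland 29) to 9 (without gland 17) calls for hyperplastic against virgin glands. It gave 26 to 29 for Wnt-1 tumors and 19 to 22 for Neu tumors against virgin glands. Leaving out 1 fat sample gave 16 (without fat 44) to 31 (without fat 45) for fat. Leaving out 1 Neu metastasis kept Neu metastases and the interaction at 0. No hyperplastic gland, primary tumor or Wnt-1 metastasis was left out singly. Of 1421 recalculations of 107 named calls, 1241 kept direction and call, 169 lost the call and 11 reversed. Uba6 in Wnt-1 tumors against hyperplastic glands was -0.086 with the median of clones. The other reversals were in fat. With ratios beyond 0.01 or 100 set missing, without the arrays of SD over 1.3 and without fat 44, Ube2l6 was 0.26, 0.21 and 0.26, Ube2d-ps 0.41, 0.37 and 0.36, and Usp28 0.23, 0.10 and 0.087. Usp6nl was 0.019 without fat 44. Leaving out 1 fat sample gave -3.54 to 0.26 for Ube2l6, -2.03 to 0.019 for Usp6nl, -1.82 to 0.36 for Ube2d-ps and -1.57 to 0.087 for Usp28. The cause of the changes was not tested beyond these settings. Some of the 1421 recalculations could change little, so the number kept overstates how far the calls were tried. No member value was missing where a value on every array was required. Of the 7345 member values, 5 lay beyond a ratio of 0.01 or 100.

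Metastases and tumors share sample numbers in the labels. Deviations of same-numbered arrays correlated by -0.063 to 0.30 for 7 Wnt-1 numbers, of which 1 was highest with its own number, and by -0.012 to 0.10 for 3 Neu numbers. A tumor and a metastasis of the same mouse can also correlate weakly, so these values cannot exclude pairing. The labels do not state it, and the numbers were not taken as pairs in the main fits. With the replicate number as a block, 1 member was called for Wnt-1 and 0 for Neu metastases. Precision is limited by 3 arrays of Neu metastases and of fat and by 5 virgin glands. The spots' own brightness was not used here, so no level was set against its background.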
